A study of Mus musculus with 7 samples.

Results

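The 7 genes Adgre1, Cd68, Ms4a7, Aif1, Lgals3, Pltp and Cd81 are used as general markers of differentiated macrophages. Use as a marker does not mean that a gene is confined to macrophages. They were followed by their gene symbols among the 26130 genes of a count table of sorted mouse lung myeloid cells. All 7 were counted in each of 7 libraries and passed the filter on low counts, which left 13665 genes to test. The mice carried both an mScarlet reporter of Fth1, the ferritin heavy chain, and a GFP reporter of Lyz2, which encodes lysozyme and labels myeloid cells in general. Cells positive for GFP, CD11b and Ly6C and negative for Ly6G were taken from dissociated lung, a gate for monocytes and the macrophages that arise from them. The LPS Fth1-high (n = 3) and LPS Fth1-low (n = 2) groups are the cells with high and with low reporter signal from mice given 20 µg of LPS (lipopolysaccharide of Escherichia coli 0111:B4, a component of the bacterial outer membrane) in 50 µl, instilled through the trachea under isoflurane, and killed after 3 days. The untreated Fth1-low group (n = 2) is the low-signal gate of mice given nothing. No label or protocol text used here gives the age of the mice or says whether a library came from 1 mouse or a pool, so p-values measure the spread between libraries, which may be technical. High-reporter cells of untreated mice were not analysed here, so setting LPS Fth1-high beside untreated Fth1-low changes treatment and gate together.

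When a blood monocyte enters inflamed lung it can differentiate into a macrophage, gaining phagocytic and lysosomal machinery and losing proteins of circulating cells. The 7 markers sit at different places in that machinery. Adgre1 encodes the adhesion G protein-coupled receptor that carries the classical mouse macrophage antigen. Cd68 encodes macrosialin, a heavily glycosylated membrane protein of late endosomes and lysosomes related to the LAMP proteins. Ms4a7 encodes a membrane protein of the MS4A family, which spans the membrane several times and is found on macrophages. Aif1 encodes IBA1, a calcium-binding protein that bundles actin in membrane ruffles and phagocytic cups. Lgals3 encodes galectin-3, a lectin that binds galactose-containing sugars and damaged lysosomes. Pltp encodes phospholipid transfer protein, a secreted lipid carrier and a target of the sterol-sensing LXR receptors. Cd81 encodes a tetraspanin, a scaffold for other membrane proteins that many cell types carry, B cells and fibroblasts among them.

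Library totals ranged from 15285553 to 27997007 counts in LPS Fth1-high, were 637787 and 19001523 in LPS Fth1-low, and were 22995442 and 10459703 in untreated cells. LPS Fth1-low replicate 1 was the shallow library: 1 count there equals 1.67 CPM (the unit of level used throughout, counts scaled to library size with TMM factors), against 0.0353 to 0.0932 CPM in the others, and ribosomal RNA took 19.4% of its counts, against 0.704% to 8.42%. Its log2 CPM correlated with replicate 2 of its group at Pearson r = 0.863 across genes, where the other replicate pairs gave 0.960 to 0.980 (genes are not independent replicates). The gate gene Fth1 averaged 18234 ± 4342 CPM in LPS Fth1-high, 3898 ± 1312 CPM in LPS Fth1-low and 1729 ± 81.1 CPM in untreated cells (SD). Lyz2, the gene of the myeloid reporter, averaged 7965 ± 1763, 8137 ± 1434 and 11827 ± 953 CPM (SD) in the same order of groups, and Ly6g, which the sort excluded, had at most 2 counts in a library. Marker calls that changed without the shallow library are given beside each marker.

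**Figure D1:**
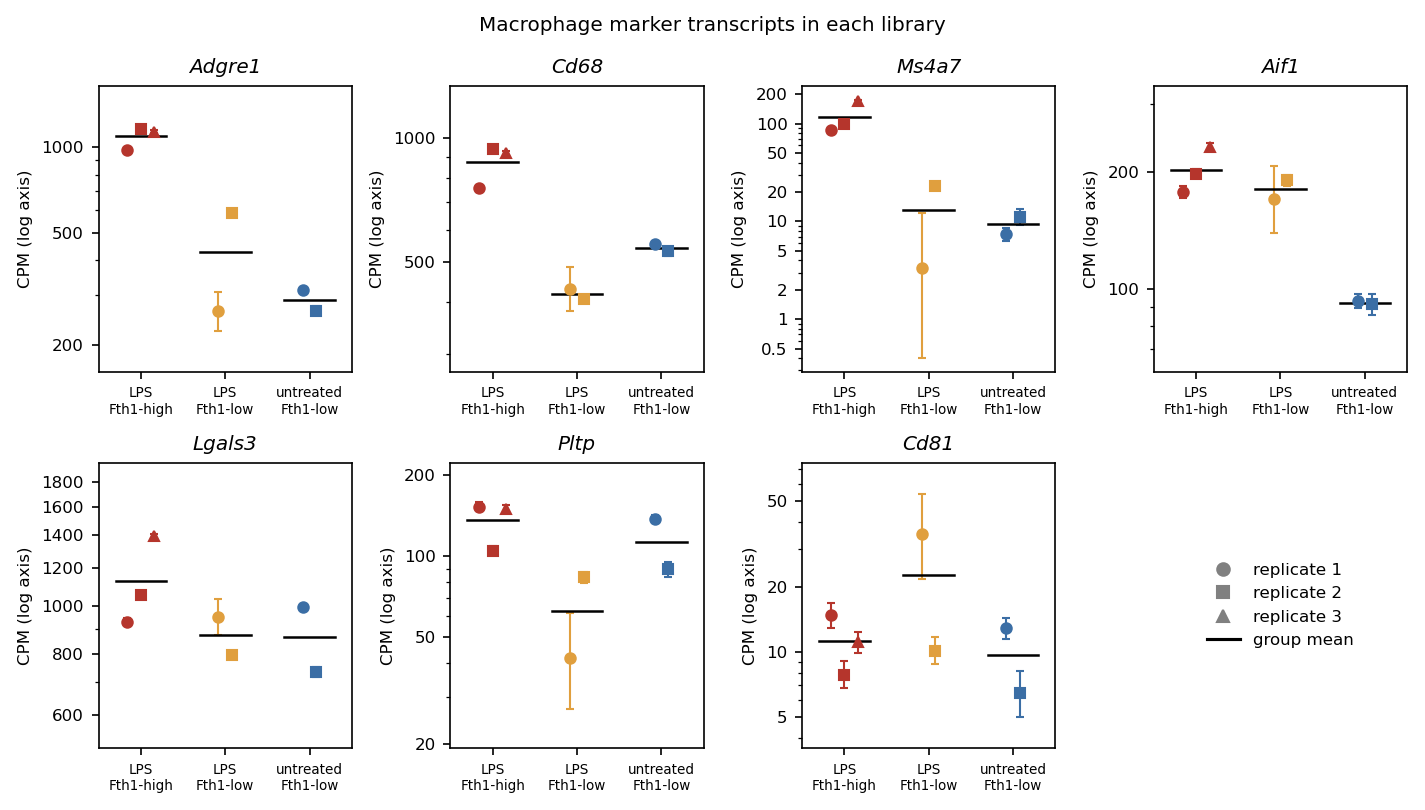
CPM of each marker on log axes, with LPS Fth1-high, LPS Fth1-low and untreated Fth1-low libraries from left to right; symbols give the replicate, bars the exact 95% Poisson interval of the count and black lines the group mean. Ms4a7, Adgre1 and Cd68 were highest in all 3 LPS Fth1-high libraries, Aif1 was higher in all 5 LPS libraries than in both untreated libraries, and Cd81 was highest in LPS Fth1-low replicate 1.

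The sequences just before the transcription start are shown for Cd68, Ms4a7 and Aif1, the called markers for which the RefSeq table (GRCm38.p6) held an entry; 6 of the 7 markers had one. Each line gives the 250 bases before the start, 5′ to 3′ on the gene's strand, with matches to the AP-1 motif TGANTCA in capitals. The windows are chr11:69666171-69666420 (minus strand) for Cd68, chr19:11336147-11336396 (minus strand) for the first of 2 listed Ms4a7 starts, and chr17:35176053-35176302 (minus strand) for Aif1.
Cd68: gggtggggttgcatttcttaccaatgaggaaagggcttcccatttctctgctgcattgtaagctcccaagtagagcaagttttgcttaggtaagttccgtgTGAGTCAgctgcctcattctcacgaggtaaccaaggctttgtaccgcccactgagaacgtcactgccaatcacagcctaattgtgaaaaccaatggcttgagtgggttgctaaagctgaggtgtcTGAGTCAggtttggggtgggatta
Ms4a7: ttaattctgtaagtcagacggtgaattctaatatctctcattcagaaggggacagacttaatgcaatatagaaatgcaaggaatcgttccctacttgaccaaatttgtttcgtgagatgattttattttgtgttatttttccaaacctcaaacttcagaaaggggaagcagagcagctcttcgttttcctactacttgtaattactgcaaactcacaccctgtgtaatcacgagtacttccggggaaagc
Aif1: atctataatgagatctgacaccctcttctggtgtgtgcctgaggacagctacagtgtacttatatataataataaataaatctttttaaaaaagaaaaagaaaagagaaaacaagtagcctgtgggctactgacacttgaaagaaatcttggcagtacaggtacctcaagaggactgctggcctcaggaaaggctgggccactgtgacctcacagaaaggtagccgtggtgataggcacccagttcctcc
On both strands, 5 motifs were searched in these and in all 32851 mouse windows of the same length and position. The PU.1/ETS motif GAGGAAGT occurred in 2.44% of all windows. The E-box CACGTG occurred in 6.02% of them and the AP-1 motif in 6.75%. The MAF motif TGCTGAC occurred in 3.81%, and the TATA box TATAAA in 12.4%. No matches in the markers' windows overlapped each other. Cd68 held 2 AP-1 matches, at -149 to -143 and at -24 to -18 from the start. Ms4a7 at this start and Aif1 held none of the 5. The windows of Lgals3, Pltp and Cd81 held none either, and the second Ms4a7 start held 1 AP-1 match. GC content was 49.2% for Cd68, 38.8% for Ms4a7 and 43.6% for Aif1, against 66.0%, 57.6% and 65.6% for Lgals3, Pltp and Cd81 and a median of 52.4% over all windows. A match is a description of the letters only.

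The first comparison set LPS Fth1-high against LPS Fth1-low cells and asks how the markers divide with the ferritin reporter after LPS. Ms4a7, Adgre1 and Cd68 were higher in the Fth1-high cells, by 6.55-fold, 2.53-fold and 2.08-fold. Pltp, Lgals3, Aif1 and Cd81 were not called. In these bulk samples, more cells of a type and more RNA per cell cannot be told apart. Thus 3 of 7 markers were called higher (edgeR quasi-likelihood test, Benjamini-Hochberg adjusted p below 0.05 over all genes), where 3.68% of all genes tested were called higher, and 0 were called lower, where 4.57% were; in either direction 8.25% of all genes were called. No marker was lower at an unadjusted p below 0.05, and DESeq2 and limma-voom also called 0 lower. All 3 Fth1-high libraries lay above both Fth1-low ones for 4 of 7 markers, these 3 and Pltp, and for 24.2% of all genes. The median log2 difference was 1.02 over the 7 markers and 0.04 over all genes tested. The markers were chosen with earlier results of these data known, so these shares and medians, here and below, are a description.

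Ms4a7 (ENSMUSG00000024672.11, chr19:11321039-11336146, minus strand, mm10) had 86.2, 98.4 and 168 CPM in LPS Fth1-high, against 3.35 and 22.8 CPM in LPS Fth1-low. The groups were far apart, and the Fth1-low pair also differed from each other. The log2 difference was 2.71 ± 0.51 (SE, adjusted p = 0.012). The lower Fth1-low value rests on 2 counts (exact 95% Poisson interval 0.405 to 12.1 CPM, counting error only). The call held when any 1 of the 7 libraries was left out, but its size moved to 5.14 without LPS Fth1-low replicate 2, when those 2 counts stood for the group alone.

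Adgre1 (ENSMUSG00000004730.15, chr17:57358691-57483527, plus strand) had 984, 1166 and 1138 CPM in LPS Fth1-high, against 265 and 588 CPM in LPS Fth1-low. All Fth1-high values exceeded both Fth1-low values, and the Fth1-low pair again disagreed, with replicate 1 the lower. The log2 difference was 1.34 ± 0.32 (adjusted p = 0.034). It was 0.87 (adjusted p = 0.076) without LPS Fth1-low replicate 1 and 2.06 without replicate 2, and the call was also lost without LPS Fth1-high replicate 2 (adjusted p = 0.083) or 3 (0.088) or untreated replicate 1 (0.057) or 2 (0.069).

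Cd68 (ENSMUSG00000018774.13, chr11:69664213-69666153, minus strand) had 754, 940 and 919 CPM in LPS Fth1-high, against 432 and 407 CPM in LPS Fth1-low. Here the 2 Fth1-low libraries lay close together, and no values overlapped. The log2 difference was 1.06 ± 0.21 (adjusted p = 0.014), and leaving out LPS Fth1-low replicate 1 or 2 kept the call. It was lost without LPS Fth1-high replicate 2 (0.98, adjusted p = 0.070) or replicate 3 (1.01, adjusted p = 0.063).

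Pltp (chr2:164839518-164857711, minus strand) had 153, 105 and 150 CPM in LPS Fth1-high, against 41.9 and 83.6 CPM in LPS Fth1-low. The values did not overlap, but the log2 difference of 1.02 ± 0.33 missed the threshold (adjusted p = 0.099), whereas DESeq2 gave an adjusted p of 0.019. The lower Fth1-low value, from the shallow library, rests on 25 counts (exact 95% Poisson interval 27.1 to 61.8 CPM). With any 1 library left out the difference ranged from 0.68 to 1.71. Its annotated span overlaps Ctsa, a lysosomal protease gene on the other strand, and the strand that was counted is not stated in these sources, so reads of the shared stretch cannot be assigned with certainty. Ctsa differed by 0.37 ± 0.24 (adjusted p = 0.43).

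Lgals3 (chr14:47367751-47386160, plus strand) was first or second of the 7 in level per exonic length in every group. It had 931, 1056 and 1392 CPM in LPS Fth1-high, against 953 and 795 CPM in LPS Fth1-low. The groups overlapped, and the log2 difference was 0.37 with a 95% interval of -0.21 to 0.95 (adjusted p = 0.47).

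Aif1 (chr17:35170991-35176068, minus strand) had 178, 198 and 232 CPM in LPS Fth1-high, against 171 and 190 CPM in LPS Fth1-low. The ranges overlapped, and the log2 difference was 0.16 with a 95% interval of -0.28 to 0.60 (adjusted p = 0.71), so a gap as large as that of Cd68 lies outside the interval.

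Cd81 (chr7:143052739-143067934, plus strand) was the weakest marker per length in LPS Fth1-high cells. It had 14.8, 7.84 and 11.1 CPM in LPS Fth1-high, against 35.2 and 10.1 CPM in LPS Fth1-low, where the higher value rests on 21 counts. The groups overlapped, and the log2 difference of -0.71 ± 0.56 (adjusted p = 0.52) became 0.12 without LPS Fth1-low replicate 1.

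**Figure D2:**
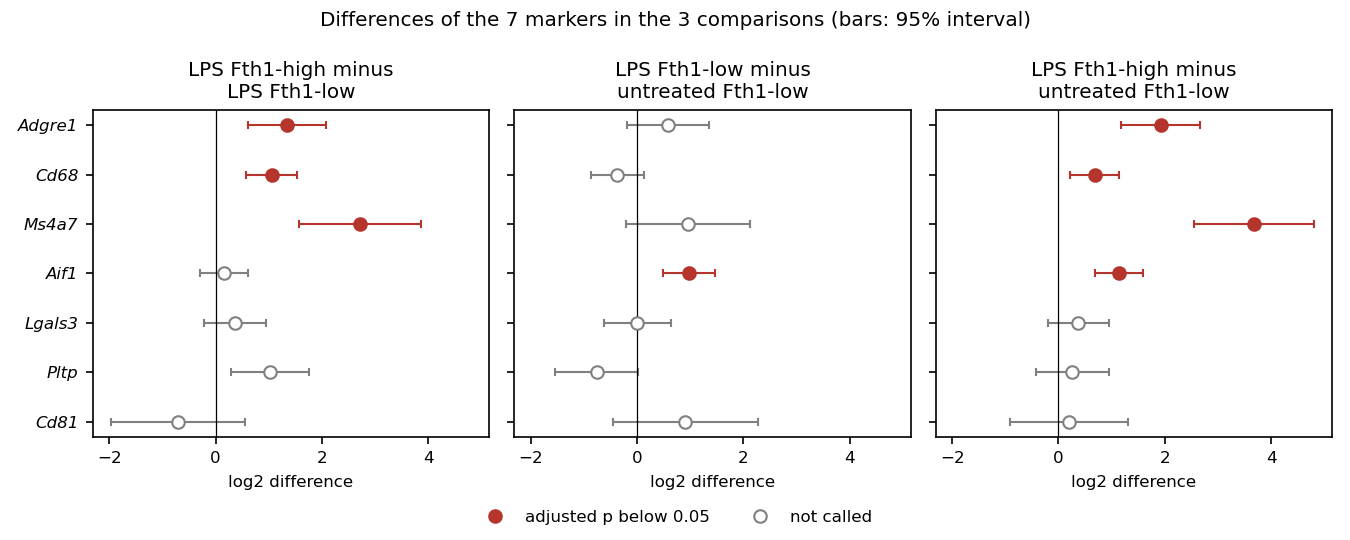
Log2 difference (x axis) of each marker in the 3 comparisons, with 95% intervals from the edgeR fit; filled red points had an adjusted p below 0.05. Ms4a7, Adgre1 and Cd68 were called in the left panel, Aif1 in the middle panel, and all 4 of these in the right panel.

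The second comparison set LPS Fth1-low against untreated Fth1-low cells, both from the low gate. The untreated mice had neither LPS nor the instillation under isoflurane, so these cannot be told apart. Aif1 was called higher, and the other 6 markers were not called in either direction. Aif1 had 171 and 190 CPM in LPS Fth1-low, against 93.2 and 91.2 CPM in untreated cells. Both LPS libraries lay well above both untreated libraries, a 1.97-fold difference (log2 0.98 ± 0.22, adjusted p = 0.041). The size held between 0.87 and 1.08 with any 1 library left out, yet the call was lost in all 7 of those fits (adjusted p 0.053 to 0.27). That 1 marker of 7 compares with 2.99% of all genes called higher, and 0 of 7 with 0.629% called lower, or 3.62% in all. No marker was lower at an unadjusted p below 0.05, and neither DESeq2 nor limma-voom called one lower. The median log2 difference was 0.58 over the 7 markers and -0.05 over all genes.

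The markers that were not called in the low gate went different ways. Adgre1 had 265 and 588 CPM in LPS Fth1-low, against 314 and 264 CPM in untreated cells, so replicate 1 lay at the untreated level and replicate 2 above it (log2 0.58 ± 0.34, adjusted p = 0.54). Ms4a7 had 3.35 and 22.8 CPM in LPS Fth1-low, against 7.41 and 11.2 CPM in untreated cells, on both sides of the untreated pair (0.97 ± 0.51, adjusted p = 0.49). Both differences changed sign without LPS Fth1-low replicate 2. Cd68 had 432 and 407 CPM in LPS Fth1-low, against 553 and 532 CPM in untreated cells. Its 2 groups did not overlap, with a difference of -0.37 ± 0.22 (adjusted p = 0.55). Pltp had 41.9 and 83.6 CPM in LPS Fth1-low, against 138 and 89.5 CPM in untreated cells, again without overlap (-0.76 ± 0.35, adjusted p = 0.39). Lack of overlap is common with 2 libraries a group: 23.2% of all genes tested had both LPS Fth1-low libraries below both untreated ones, and 16.3% had both above. Lgals3 had 953 and 795 CPM in LPS Fth1-low, against 999 and 734 CPM in untreated cells (0.01 ± 0.28, adjusted p = 0.999). Cd81 had 35.2 and 10.1 CPM in LPS Fth1-low, against 12.9 and 6.43 CPM in untreated cells (0.91 ± 0.61, adjusted p = 0.60).

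The last comparison set LPS Fth1-high against untreated Fth1-low cells, the widest contrast of the design. Ms4a7 was 12.8-fold, Adgre1 3.79-fold, Aif1 2.20-fold and Cd68 1.61-fold higher in LPS Fth1-high cells, and Lgals3, Pltp and Cd81 were not called. That is 4 of 7 markers called higher, against 12.4% of all genes tested, and 0 called lower, against 11.9%, or 24.3% in all. The same 4 markers had LPS Fth1-high libraries that all lay above both untreated ones, as did 30.3% of all genes. No marker was lower at an unadjusted p below 0.05 or by DESeq2 or limma-voom. The median log2 difference was 0.68 over the markers and 0.03 over all genes. This contrast shares its libraries with the other 2, so its values stand beside theirs and are no separate support.

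Ms4a7 had 86.2, 98.4 and 168 CPM in LPS Fth1-high cells, against 7.41 and 11.2 CPM in untreated cells (3.68 ± 0.50, adjusted p = 7.9e-04). Adgre1 had 984, 1166 and 1138 CPM in LPS Fth1-high cells, against 314 and 264 CPM in untreated cells (1.92 ± 0.33, adjusted p = 0.0025). Aif1 had 178, 198 and 232 CPM in LPS Fth1-high cells, against 93.2 and 91.2 CPM in untreated cells (1.14 ± 0.20, adjusted p = 0.0028). The ranges of these 3 genes were wide apart, and their calls held with any 1 library left out. Cd68 had 754, 940 and 919 CPM in LPS Fth1-high cells, against 553 and 532 CPM in untreated cells (0.68 ± 0.21, adjusted p = 0.037). Its ranges did not overlap either, but the call was lost without LPS Fth1-high replicate 2 (adjusted p = 0.14) or 3 (0.13) or untreated replicate 1 (0.17) or 2 (0.20). For the markers not called, the 95% intervals of the log2 difference were -0.20 to 0.96 for Lgals3, -0.43 to 0.95 for Pltp and -0.91 to 1.31 for Cd81.

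Divided by the length of their merged exons, the markers spanned a wide range of levels in every group. In LPS Fth1-high cells Cd68 came first at 693 ± 81.0 CPM per kb, followed by Lgals3 at 606 ± 128, whose values overlapped those of Cd68. Adgre1 followed at 338 ± 30.3, Aif1 at 132 ± 18.0, Pltp at 53.2 ± 10.6, Ms4a7 at 26.4 ± 9.95 and Cd81 at 3.91 ± 1.21 CPM per kb (SD, n = 3), each below every value of the gene before it. In LPS Fth1-low cells Lgals3 led at 470 ± 60.1 CPM per kb, above Cd68 at 334 ± 13.9, and Adgre1 (132 ± 70.7) and Aif1 (118 ± 9.08) overlapped (SD, n = 2). In untreated cells Lgals3 (467 ± 101) and Cd68 (431 ± 11.9) overlapped at the top (SD, n = 2). Ms4a7 was last in both low gates, at 2.93 ± 3.09 CPM per kb in LPS Fth1-low and 2.09 ± 0.599 in untreated cells, with values that overlapped those of Cd81 (7.87 ± 6.15 and 3.35 ± 1.58 CPM per kb in the same order). Ms4a7 was thus near the bottom of the order in every group, although its log2 difference was the largest of the 7 in both comparisons of LPS Fth1-high cells.

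Relatives of the markers were taken from family lists, and in the Adgre, MS4A and tetraspanin lists calls went both ways between the LPS gates. In the Adgre family of adhesion receptors, the other 2 genes fell where Adgre1 rose. Adgre5, which encodes the leukocyte receptor CD97, had 263, 289 and 299 CPM in LPS Fth1-high cells, against 1117 and 1143 CPM in LPS Fth1-low cells (-1.99 ± 0.21, adjusted p = 6.0e-04). In untreated cells it had 2059 and 2527 CPM, so that LPS Fth1-low cells were lower there too (-1.02 ± 0.23, adjusted p = 0.045, a call lost with any 1 library left out), and LPS Fth1-high cells lower still (-3.01 ± 0.21, adjusted p = 1.4e-05). Adgre4, a receptor of nonclassical monocytes in the mouse, had 25.9, 42.1 and 62.3 CPM in LPS Fth1-high cells, against 117 and 260 CPM in LPS Fth1-low cells (-2.16 ± 0.40, adjusted p = 0.011, not called without LPS Fth1-low replicate 2, when it was -1.42). Untreated cells had 643 and 755 CPM of Adgre4, and LPS Fth1-high cells were lower than these by -4.00 ± 0.41 (adjusted p = 1.4e-04).

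A ratio of 2 genes within a library does not depend on how libraries are scaled. Per exonic base, Adgre1 was 4.34, 4.68 and 4.41 times Adgre5 in LPS Fth1-high cells, against 0.275 and 0.597 times in LPS Fth1-low cells and 0.177 and 0.121 times in untreated cells. The ratio of Adgre1 to Adgre4 was 40.9, 29.8 and 19.7 in LPS Fth1-high cells, against 2.43 and 2.44 in LPS Fth1-low cells and 0.526 and 0.377 in untreated cells. For both pairs the 3 groups stood in the same order with no overlap, although the shallow library took part. These pairs and the next were chosen after their values were seen.

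**Figure D3:**
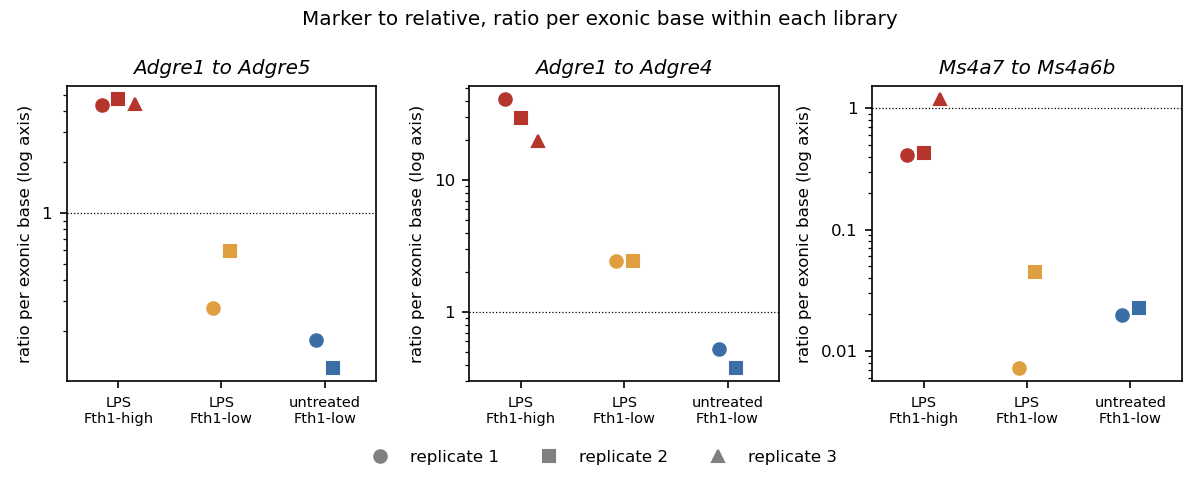
Ratio of a marker to a relative within each library, per exonic base, on log axes, with LPS Fth1-high, LPS Fth1-low and untreated Fth1-low cells from left to right and symbols for replicates. Adgre1 exceeded Adgre5 in the 3 LPS Fth1-high libraries only, at 4.34 to 4.68, and Ms4a7 to Ms4a6b was 0.412 to 1.18 there, against at most 0.0450 in the other 4 libraries.

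Among 18 MS4A genes, 11 passed the filter. Between the 2 gates after LPS, Ms4a7 was the only one called higher, while Ms4a6b, Ms4a4b and Ms4a4c were called lower (Ms4a4c at -1.13 ± 0.23, adjusted p = 0.015, lost without LPS Fth1-high replicate 2 or 3 or LPS Fth1-low replicate 2). Ms4a6b, which like Ms4a7 lies on chromosome 19, had 211, 231 and 143 CPM in LPS Fth1-high cells, against 467 and 510 CPM in LPS Fth1-low cells (-1.33 ± 0.25, adjusted p = 0.011, or 0.058 without LPS Fth1-low replicate 2). The ratio of Ms4a7 to Ms4a6b per exonic base was 0.412, 0.429 and 1.18 in LPS Fth1-high cells, against 0.00722 and 0.0450 in LPS Fth1-low cells and 0.0197 and 0.0225 in untreated cells. The lowest of these contains the 2 Ms4a7 counts of LPS Fth1-low replicate 1. Ms4a6d had 516, 612 and 486 CPM in LPS Fth1-high cells and 353 and 491 CPM in LPS Fth1-low cells, against 91.5 and 156 CPM in untreated cells. It was called higher in LPS Fth1-low than in untreated cells (1.78 ± 0.31, adjusted p = 0.012, lost if LPS Fth1-low replicate 2 or untreated replicate 1 was dropped) and in LPS Fth1-high than in untreated cells (2.12 ± 0.29, adjusted p = 6.8e-04), and was not called between the gates (0.34 ± 0.27, adjusted p = 0.53). In LPS Fth1-high against untreated cells, 3 MS4A genes rose, Ms4a7, Ms4a6d and Ms4a14, and 3 fell, Ms4a6b (a call lost without untreated replicate 2), Ms4a4b, and Ms4a4c (lost without LPS Fth1-high replicate 2 or 3 or untreated replicate 1 or 2).

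Of 19 tetraspanin genes, 4 were higher and 2 lower in LPS Fth1-high than in LPS Fth1-low cells, while Cd81 was not called. Cd63, the tetraspanin of late endosomes and lysosomes, had 37.0, 67.5 and 100 CPM in LPS Fth1-high cells, against 8.37 and 6.74 CPM in LPS Fth1-low cells (3.29 ± 0.52, adjusted p = 0.0053, or 0.12 without LPS Fth1-low replicate 2). Cd9, a plasma membrane tetraspanin, averaged 255 ± 125 CPM in LPS Fth1-high against 55.5 ± 5.05 CPM in LPS Fth1-low cells (2.18 ± 0.41, adjusted p = 0.011, lost without LPS Fth1-low replicate 1 or 2). Tspan4 was also higher (2.17 ± 0.45, adjusted p = 0.017, lost without LPS Fth1-high replicate 2 or 3 or LPS Fth1-low replicate 2), and Tspan13 was lower (-2.78 ± 0.32, adjusted p = 9.6e-04). With a library left out, 0 to 3 tetraspanins were called higher (0 without LPS Fth1-low replicate 2, and 2 without LPS Fth1-high replicate 2 or 3 or LPS Fth1-low replicate 1) and 1 to 3 lower. In LPS Fth1-low against untreated cells none of the 19 was called by edgeR, with 2 higher and 2 lower at an unadjusted p below 0.05, and DESeq2 called 1 higher and 1 lower. Against untreated cells, LPS Fth1-high cells had 4 tetraspanins called higher and 6 lower by edgeR, fewer of each in some fits with a library left out.

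**Figure D4:**
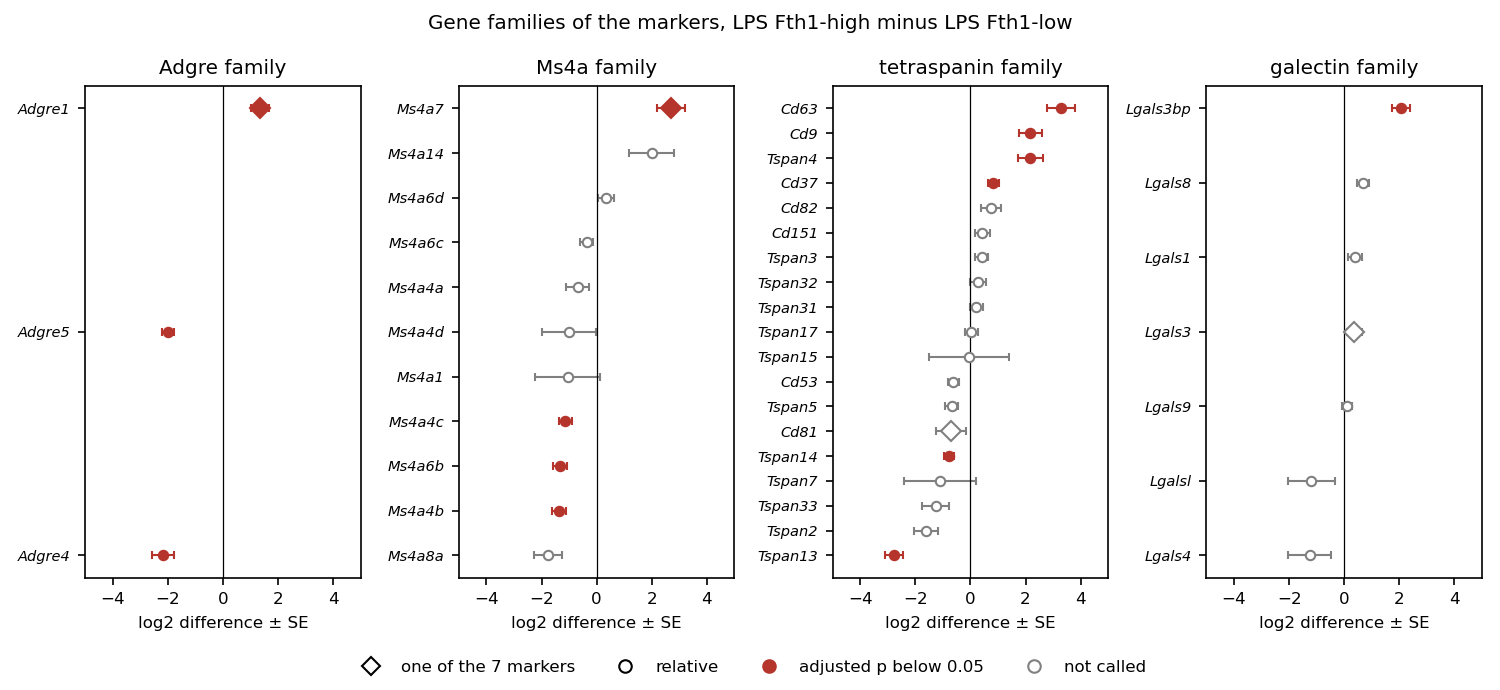
Log2 difference ± SE (x axis), LPS Fth1-high minus LPS Fth1-low, of the tested genes of 4 families; diamonds are markers of the set, circles their relatives, and filled red symbols had an adjusted p below 0.05. Adgre1 and Ms4a7 lie at the top of their families above called falls, whereas Cd81 and Lgals3 were not called and lie inside theirs.

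Of 10 galectin-related genes, 7 were tested and 1 was called between the gates, Lgals3bp, which encodes a secreted glycoprotein bound by galectin-3. It had 499.7, 629 and 567 CPM in LPS Fth1-high cells, against 93.8 and 168 CPM in LPS Fth1-low cells, while Lgals3 itself was not called (2.06 ± 0.32 for Lgals3bp, adjusted p = 0.0047). Lgals3bp, Lgals8 and Lgals1 were called higher in LPS Fth1-high than in untreated cells, Lgals8 not without untreated replicate 1 and Lgals1 not without LPS Fth1-high replicate 2 or 3 or untreated replicate 2. No galectin gene was called in LPS Fth1-low against untreated cells by edgeR, DESeq2 or limma-voom, and 0 had an unadjusted p below 0.05. Of the LAMP family, 4 of 5 genes were tested, and Cd68 was the only one edgeR called between the gates, where DESeq2 called 2 higher. Lamp1, the major lysosomal membrane protein, averaged 1664 ± 290 CPM in LPS Fth1-high against 911 ± 491 CPM in LPS Fth1-low cells (0.86 ± 0.34, edgeR adjusted p = 0.18, unadjusted p = 0.033). Aif1l, the close relative of Aif1, did not pass the filter. Lbp, a lipopolysaccharide-binding relative of Pltp, was low throughout and was called lower in LPS Fth1-high than in LPS Fth1-low cells (-2.66 ± 0.67, adjusted p = 0.040, kept in 1 of 7 fits with a library left out).

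A list of 28 other macrophage genes, all of them tested, is set beside the 7 markers. In LPS Fth1-high against LPS Fth1-low cells 12 were higher and 0 lower with a median log2 difference of 1.06, though 3 were higher and 1 lower without LPS Fth1-low replicate 1, and 6, 7 and 7 were higher without LPS Fth1-high replicate 2, LPS Fth1-high replicate 3 and untreated replicate 2. At an unadjusted p below 0.05 it had 2 lower genes, and DESeq2 called 2 lower. Trem2, a lipid receptor of macrophages, rose by 1.65 ± 0.29 (adjusted p = 0.0087, or 0.054 without LPS Fth1-low replicate 1) and C1qc, a chain of complement C1q, by 2.03 ± 0.38 (adjusted p = 0.011). In LPS Fth1-low against untreated cells 5 were higher and 1 lower, with a median of 0.15. Dropping LPS Fth1-low replicate 1 gave 6 and 0, dropping replicate 2 gave 4 and 2, and dropping either untreated library gave 5 and 0. C1qc, C1qb and C1qa differed there by 5.71 ± 0.49, 5.79 ± 0.50 and 6.77 ± 0.63 (adjusted p = 2.1e-04, 2.1e-04 and 4.7e-04), and Dab2, a clathrin adaptor gene, by 3.85 ± 0.49 (adjusted p = 0.0022). Those sizes lie far above the 0.98 of Aif1, the called marker of that comparison, but start from very low levels. In untreated cells C1qc, C1qb, C1qa and Dab2 averaged 2.59, 1.93, 1.35 and 2.40 CPM, against 92.2 CPM for Aif1. The LPS Fth1-low libraries were also spread widely, with C1qa at 145 ± 104 CPM (SD). In LPS Fth1-high against untreated cells 17 were higher and 2 lower (11 and 1 without untreated replicate 2, 12 and 1 without untreated replicate 1, 15 and 1 if LPS Fth1-high replicate 1 or 2 was dropped), the 2 being Cx3cr1, the fractalkine receptor gene (-2.60 ± 0.32, adjusted p = 3.3e-04), and Mrc1, the mannose receptor gene (-1.49 ± 0.47, adjusted p = 0.047, lost without LPS Fth1-high replicate 1 or 2 or untreated replicate 1 or 2).

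The genes with the most similar profile to each of 6 markers over the 7 libraries were found by the root mean square difference in log2 CPM, each gene centred on its mean, among 8090 genes of at least 10 CPM. The libraries share depth and composition, so this is a description. For Adgre1 they were Tgfbi, a secreted matrix protein gene of monocytes and macrophages (0.12), Ldha, lactate dehydrogenase (0.13), and Plekha1 (0.14), where the median gene was at 0.93. For Pltp they were Lipa, the lysosomal acid lipase gene (0.13), Entpd5 (0.18) and Elp3 (0.18), with the median gene at 0.66. For Cd68 they were Cyb5r3 (0.11), Tatdn2 (0.13) and Specc1 (0.15), with the median gene at 0.54. Aif1 lay nearest to Mrpl51 (0.10), Psmb10, an immunoproteasome subunit gene (0.13), and Pla2g15, a lysosomal phospholipase gene (0.13), with the median gene at 0.61. Lgals3 lay nearest to Cdk4 (0.099), Bax (0.10) and Sh3glb2 (0.10), with the median gene at 0.46. Ms4a7 lay nearest to Slc38a6 (0.46), Sdc1 (0.50) and Stra6l (0.51), with the median gene at 1.94, since the distance grows with a gene's own spread. In LPS Fth1-low replicate 1 these 3 neighbours had 3.35, 5.02 and 1.67 CPM, where 1 count equals 1.67 CPM. Like Ms4a7, they rest on very few counts in that library. Among the markers themselves, Cd68 and Lgals3 were the most alike pair (0.33) and Ms4a7 and Cd81 the least (2.38).

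Marker lists of other cells were summed in each library. The summed level of 11 nonclassical monocyte genes was 1596 to 1942 CPM in LPS Fth1-high, 4664 to 4731 CPM in LPS Fth1-low and 9647 to 11157 CPM in untreated libraries. Between the LPS gates 8 of these 11 were called lower, or 5 without LPS Fth1-low replicate 2, and 10 of 11 were lower in LPS Fth1-high than in untreated cells, also with any 1 library left out. Interstitial macrophage genes summed to 2120 to 2716 CPM, 499 to 947 CPM and 321 to 351 CPM in the same order of groups, and 5 of the 12 tested were higher and 1 lower in LPS Fth1-high than in LPS Fth1-low cells. Without LPS Fth1-low replicate 1, LPS Fth1-high replicate 2 or 3, or untreated replicate 2, 2 were higher; without untreated replicate 1, 3 were. The lower call was lost without LPS Fth1-high replicate 1 or 2, LPS Fth1-low replicate 2 or either untreated library. Classical monocyte genes summed to 8124 to 12861 CPM, 15899 to 17932 CPM and 10730 to 10798 CPM, with 6 of 12 lower between the LPS gates, or 4 without LPS Fth1-low replicate 1. Of the classical genes 2 were higher there at an unadjusted p below 0.05, and DESeq2 called 1 higher. Ly6c2, a gene of the Ly6C gate, averaged 2272 CPM in LPS Fth1-high against 1120 CPM in LPS Fth1-low cells (1.03 ± 0.32, edgeR adjusted p = 0.093). Alveolar macrophage genes summed to 609 to 2032 CPM, 3522 to 6159 CPM and 1870 to 2059 CPM. Most of this was Chil3, a gene of both this list and the classical monocyte list. Chil3 was at 471 to 1877 CPM, 3189 to 5805 CPM and 1410 to 1427 CPM. Without Chil3, a choice made after the values were seen, the alveolar sums were 139 to 253 CPM, 333 to 354 CPM and 443 to 649 CPM, and the classical sums 7383 to 10983 CPM, 12127 to 12710 CPM and 9302 to 9388 CPM. Between the LPS gates 2 of 14 alveolar genes were lower, Ear2 and Chil3, or 1 without any 1 of the 4 low-gate libraries, and in LPS Fth1-low against untreated cells 1 was lower, Fabp4, a call lost without any of those 4. Neutrophil genes summed to 380 to 414, 663 to 708 and 417 to 451 CPM, with 2 of 11 tested lower between the LPS gates, or 0 without LPS Fth1-low replicate 2, 1 without LPS Fth1-high replicate 2 and 3 without LPS Fth1-high replicate 1. Most of that sum was Csf3r, at 272 to 330, 366 to 497 and 299 to 356 CPM, while Camp, Ngp and Ltf were each below 5 CPM in all libraries. S100a8 averaged 57.1, 72.8 and 8.54 CPM, S100a9 7.71, 36.2 and 10.3 CPM, and Mmp8 23.4, 128 and 74.7 CPM. Between the LPS gates the lower calls were Mmp8 and S100a9. Against untreated cells edgeR called S100a8 higher in LPS Fth1-high (adjusted p = 0.0028) and LPS Fth1-low cells (adjusted p = 0.010). Mmp8 was called lower in LPS Fth1-high than in untreated cells (adjusted p = 0.025). With a library left out, not all of these calls held. Dendritic cell genes summed to 83.1 to 185, 147 to 156 and 223 to 237 CPM, overlapping between the LPS gates, with 1 of 11 higher (0 without LPS Fth1-high replicate 2 or 3 or either LPS Fth1-low library) and 4 lower (2 without LPS Fth1-low replicate 2). B cell genes summed to 27.4 to 130, 162 to 300 and 309 to 411 CPM, T and NK cell genes to 5.28 to 14.7, 26.3 to 38.5 and 23.0 to 51.0 CPM, and endothelial genes to 46.2 to 192, 136 to 236 and 140 to 337 CPM. Epithelial genes summed to 14.1 to 76.9, 21.8 to 124 and 3.82 to 784 CPM, the last value in untreated replicate 1. The epithelial and endothelial sums overlapped among all 3 groups. The B cell sums and the T and NK cell sums of LPS Fth1-high libraries lay below those of both low gates without overlap. In these 4 lists no gene was called between the LPS gates by edgeR; at an unadjusted p below 0.05, 1 B cell gene and 3 T and NK cell genes were lower, and DESeq2 called 1 B cell gene lower. Against untreated cells, edgeR called 2 of 7 B cell genes lower in LPS Fth1-high cells, Cd79b and Ighm. It also called 2 of 9 T and NK cell genes lower there, Klrb1c and Nkg7, and no epithelial or endothelial gene. These calls did not all hold with a library left out. What part these cells had in the markers' differences was not tested.

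Cd81 and the fibroblast list ordered the libraries alike. The sum of 6 fibroblast markers (Col1a1, Col1a2, Col3a1, Pdgfra, Dcn and Lum) was 57.2, 7.40 and 24.4 CPM in LPS Fth1-high, 127 and 20.0 CPM in LPS Fth1-low and 27.9 and 5.87 CPM in untreated libraries, replicates in order. Ranked by this sum and by Cd81, the 7 libraries came in the same order (Spearman's rho = 1 over 7 libraries, given as a description). Over the other 10 cell type lists, rho with Cd81 lay between -0.71 and 0.64. The pair was noticed after the values were seen, among 11 lists compared for each of the 7 markers. The next highest values were 0.96 for Aif1 and 0.93 for Adgre1, both with interstitial macrophage genes. Lum was at 0 counts in LPS Fth1-low replicate 1 and in both untreated libraries, and Col1a1 had 48 counts in LPS Fth1-low replicate 1. The part of fibroblast RNA in Cd81 was not tested.

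**Figure D5:**
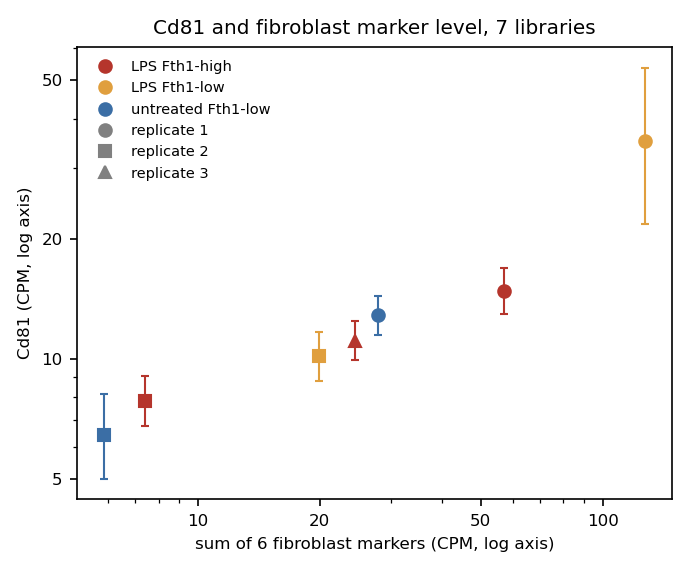
Cd81 (y axis, CPM, with exact 95% Poisson intervals) against the summed level of 6 fibroblast markers (x axis, CPM) in the 7 libraries, both on log axes; colours give the group and symbols the replicate. Both measures run from untreated replicate 2 (5.87 and 6.43 CPM) up to LPS Fth1-low replicate 1 (127 and 35.2 CPM), with the groups intermixed.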

How the data were processed

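Polyadenylated RNA (25 ng a library) was made into libraries with a stranded kit and 15 PCR cycles and read as pairs of 58 bp, per the labels' protocols. The deposited values are raw counts per gene and library; the submitters' processing notes name DRAGEN, DESeq2 and mm10, and their versions, the annotation, the counted strand and any filter are not stated in these sources. No sample column was left unused (0), and 6880 of 26130 genes had no count.

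Libraries were grouped by the labels. With R 4.3.3 and edgeR 4.0.16, genes passing filterByExpr were TMM-scaled and all 7 libraries entered a joint quasi-likelihood fit with robust dispersions and a mean per group (residual df 4). The 3 differences were tested two-sided and adjusted over all 13665 genes by Benjamini-Hochberg; adjusted p below 0.05 was called. SE is the log2 difference over the square root of F. The procedure was tested on simulated data. Profiles were compared as log2 CPM, prior count 2; those nearest to Cd81 are not reported here. Positions and merged exon lengths are of GENCODE vM21 (mm10). All 7 markers were named; of each list up to 4 called genes by smallest adjusted p were eligible, and other genes named were chosen after their values were seen. The members and lists were chosen with earlier results of these data known. Alternatives were RLE scaling, DESeq2 1.42.0, limma 3.58.1 (voom, with and without sample weights), other filters, fits of 2 groups, a replicate block, mitochondrial and ribosomal RNA genes left out, thinning to equal depth, and each library left out.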

Additional observations from a re-analysis of the deposited data

How the results depend on the processing

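Across 17 alternatives, 323 of 357 values of the 7 markers kept direction and side of the threshold, 23 lost a call, 1 gained one and 10 changed sign, none of the 10 called. The number of markers called higher with a library left out was 1 to 3 between the LPS gates (main 3), 0 in every such fit for LPS Fth1-low against untreated cells (main 1), and 3 to 4 for LPS Fth1-high against untreated cells (main 4). The single call of the second comparison was also 0 with voom sample weights and with only the 2 groups fitted. Signs changed within these leave-one-out ranges: -1.64 to 0.12 for Cd81 between the LPS gates, -0.19 to 0.80 for Cd81 and -0.0083 to 0.60 for Pltp in LPS Fth1-high against untreated cells, and -0.15 to 1.06 for Adgre1, -1.47 to 1.34 for Ms4a7 and -0.18 to 0.24 for Lgals3 in LPS Fth1-low against untreated cells. With voom sample weights Cd81 was -0.015 in LPS Fth1-high against untreated cells, and with no filter Lgals3 was -0.0019 in LPS Fth1-low against untreated cells. The causes were not tested. Leaving out a library of a pair assumes that the lone library varies like the other groups.

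Same-numbered libraries of different groups had deviations correlated at -0.037 to 0.29, and not every library correlated best with its own number. In a group of 2 libraries the 2 deviations mirror each other, so each correlation returns with the opposite sign. Whether the numbers pair the libraries therefore cannot be told from these values. With the replicate number as a block, 3, 1 and 3 markers were called higher in the 3 comparisons; the call lost was Cd68 in LPS Fth1-high against untreated cells (0.64, adjusted p = 0.15). Over all genes, the main counts of 503 higher and 625 lower between the LPS gates became 306 higher when LPS Fth1-low replicate 1 was dropped, 379 lower when replicate 2 was, and 263 and 395 or 291 and 390 without LPS Fth1-high replicate 2 or 3. For LPS Fth1-low against untreated cells, 409 higher and 86 lower became 628 and 190 with DESeq2, 179 and 18 or 203 and 11 without untreated replicate 1 or 2, and 22 or 249 lower without LPS Fth1-low replicate 1 or 2; lower calls were 40 with voom sample weights and 165 with the block. For LPS Fth1-high against untreated cells, 1690 higher and 1625 lower became 955 and 963 or 973 and 948 without untreated replicate 1 or 2, and 1001 and 958 after thinning; lower calls were 1055 without LPS Fth1-high replicate 2 and 2460 with voom sample weights. Depth limits Ms4a7 and Cd81 most, since LPS Fth1-low replicate 1 holds 2 and 21 of their counts.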
